A study of Mus musculus with 22 samples.

Results

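The genes described here lie in a block of mouse chromosome 17 between about 26 and 30 Mb, the distal end of the centromeric segment that is present in an extra copy in Ts43H mice. The block was given as 47 genes, from Dusp1 at its proximal end to Mdga1 at its distal end, and 42 of them were found by symbol among the 15780 named genes of the array. Grm4, Hmga1, Snrpc, Scube3 and Ccdc167 were not found among these named genes by symbol or synonym and were not analysed here. The rule that sets the members is one of position and uses no measured value, but the block was proposed with earlier results of these data known. RNA was measured on 22 Affymetrix arrays from male mice aged 2 months, and the aim was to compare trisomic with euploid cells. The trisomic males have the genotype Ts43H and their euploid brothers the genotype t121/D17. For each genotype there were 3 arrays each of liver, spermatids and pre-mid-pachytene spermatocytes and 2 of mid-late-pachytene spermatocytes, with the germ cells sorted from testis by flow cytometry. Both genotypes were handled alike: 20 to 30 ng of total RNA went through a labelling of 2 cycles. The labels do not say what t121 and D17 denote, where the extra segment ends or whether arrays stand for different animals, so that the spread may be technical and the p-values measure the spread between these arrays only.

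A gene in 3 copies in place of 2 would give 1.5 times as much RNA, or 0.58 on the log2 scale, if each copy were equally active. In pachytene, the long stage of meiotic prophase, homologous chromosomes are fully paired, and chromatin that stays unpaired is silenced in spermatocytes. An extra chromosome segment can therefore meet this silencing in the germ line, which does not act in liver. The block itself holds a mixture of genes that work in very different processes. They include signalling enzymes (Dusp1, Mapk14, Pim1), parts of the transcription and chromatin machinery (Taf11, Phf1, Brpf3), splicing factors (Srsf3, Srpk1), mitochondrial and membrane proteins (Mtch1, Uqcc2, Bnip1), and genes of the sperm cell (Armc12, Slc26a8).

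All levels below are log2 intensities, and all differences are trisomic minus euploid on that scale unless another order is named. A gene was tested in a cell type where its mean there was at least 4, and "rose" or "fell" means that it passed limma's test at an adjusted p of 0.05. Arrays of 1 group correlated at r of 0.988 to 0.997 over all genes. The markers of hepatocytes (7 measured) had array medians of 16.04 to 16.18 in liver and at most 2.49 in germ cells. Those of pachytene spermatocytes (8) had medians of 11.49 to 14.80 in the germ cells and at most 3.80 in liver. Those of round spermatids (6) were at 13.39 to 13.87 in spermatids and at 9.11 to 11.15 in both spermatocyte fractions. Those of elongating spermatids (7) were at 14.86 to 15.42 in spermatids. They were at 13.87 to 14.74 in pre-mid-pachytene spermatocytes, above the 10.75 to 11.95 of the mid-late fraction, which runs against the order of the stages in both genotypes. Its part in the results was not tested. In these bulk samples fewer cells of a type and less RNA per cell cannot be told apart.

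The promoters of 5 members are shown because their genes carry the patterns described below: Dusp1 and Pim1 took the same course over the euploid germ cell fractions, Cuta had the difference between liver and germ cells with the smallest p, and Taf11 and Anks1 start head to head. The sequences are from RefSeq, assembly GRCm38.p6, and run 5′ to 3′ on the strand of the gene. Each runs from 250 bases before a start listed for the gene to 50 after it. For Cuta and Taf11 this start lies inside the gene as placed for gene order. There Cuta reaches to 26939884, past its whole window, and Taf11 to 27909343. Capitals mark the half-site TGACG of a cyclic AMP response element (CRE), read on either strand, the full element TGACGTCA, which holds a half-site on each strand, and the E-box CACGTG. The windows lie at chr17:26508423-26508722 on the minus strand for Dusp1, chr17:29490535-29490834 on the plus strand for Pim1 and chr17:26939489-26939788 on the minus strand for Cuta. Those of the head-to-head pair lie at chr17:27909193-27909492 on the minus strand for Taf11 and chr17:27909056-27909355 on the plus strand for Anks1.
Dusp1: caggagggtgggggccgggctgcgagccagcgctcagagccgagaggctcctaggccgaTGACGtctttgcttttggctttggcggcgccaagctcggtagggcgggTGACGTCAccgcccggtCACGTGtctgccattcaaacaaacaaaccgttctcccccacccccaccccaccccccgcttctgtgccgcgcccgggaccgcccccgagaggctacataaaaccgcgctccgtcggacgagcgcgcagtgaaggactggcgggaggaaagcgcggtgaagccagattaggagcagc
Pim1: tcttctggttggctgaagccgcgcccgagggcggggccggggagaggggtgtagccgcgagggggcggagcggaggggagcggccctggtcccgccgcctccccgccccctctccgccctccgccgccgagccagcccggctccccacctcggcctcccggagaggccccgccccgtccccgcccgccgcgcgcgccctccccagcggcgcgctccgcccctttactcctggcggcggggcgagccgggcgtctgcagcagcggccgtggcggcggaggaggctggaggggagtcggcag
Cuta: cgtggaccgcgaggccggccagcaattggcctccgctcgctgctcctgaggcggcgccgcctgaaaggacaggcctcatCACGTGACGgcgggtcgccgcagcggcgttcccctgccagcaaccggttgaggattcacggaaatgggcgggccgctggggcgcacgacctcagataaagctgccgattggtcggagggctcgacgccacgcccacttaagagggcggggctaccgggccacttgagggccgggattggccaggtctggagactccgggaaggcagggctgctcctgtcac
Taf11: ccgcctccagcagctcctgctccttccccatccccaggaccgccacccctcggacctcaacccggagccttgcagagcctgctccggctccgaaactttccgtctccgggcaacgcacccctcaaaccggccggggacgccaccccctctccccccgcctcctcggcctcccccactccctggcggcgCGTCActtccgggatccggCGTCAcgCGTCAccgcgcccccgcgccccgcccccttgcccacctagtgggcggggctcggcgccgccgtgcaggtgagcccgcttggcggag
Anks1: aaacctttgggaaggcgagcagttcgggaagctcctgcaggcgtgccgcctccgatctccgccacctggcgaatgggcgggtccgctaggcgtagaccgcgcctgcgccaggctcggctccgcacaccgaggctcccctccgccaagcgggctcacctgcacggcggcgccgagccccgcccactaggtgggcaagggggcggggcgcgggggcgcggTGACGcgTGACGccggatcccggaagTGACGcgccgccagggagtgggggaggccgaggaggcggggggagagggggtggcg

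The Dusp1 window holds 1 full CRE, 3 half-sites counting both strands of that element, and 1 E-box. The Pim1 window holds none of these letters and 7 copies of the GC box GGGCGG, again on either strand. The Cuta window holds 1 E-box that runs into 1 half-site, with 2 bases shared between them. The windows of Taf11 and Anks1 share 163 bases, and their 3 half-sites are the same ones, read from opposite strands. Over the 38 members with a window in the table, 2 held the full CRE, 13 the half-site, 6 the E-box and 29 the GC box. Over all 32851 windows of that table the shares were 1.79%, 20.8%, 7.15% and 35.7%. Each member counts with 1 window, the most upstream. The whole table was not reduced to 1 window for each gene or to genes of the array, so these sets are unlike. These matches describe the letters only.

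In liver, 9 of the 27 tested members rose in trisomic mice and 0 fell. Over all 8180 genes tested there, 5.77% rose and 3.78% fell (9.55% in either direction). An unadjusted p under 0.05 was reached by 16 members, beside 1816 of the 8180 genes. The median difference of the members was 0.51 and that over all tested genes -0.01. The members that rose fall in 4 of the role groups. They comprise 4 of the 7 tested genes of mitochondria, membranes and trafficking, 3 of the 5 tested chaperones, adaptors and other enzymes, 1 of 4 kinases and phosphatases and 1 of 7 genes of transcription and chromatin. Of the 3 RNA processing genes 0 passed.

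Among the genes of mitochondria and membranes, Bnip1, a SNARE protein of the endoplasmic reticulum, had the highest increase. Its euploid liver arrays read 5.28, 6.93 and 5.97 and its trisomic arrays 8.10, 7.77 and 7.52. The genotypes did not overlap, and the difference was 1.74 (SE 0.32, a fold of 3.35, adjusted p = 0.00165). Uqcc2, an assembly factor of respiratory complex III, read 8.66, 8.34 and 8.04 in euploid and 9.94, 9.72 and 9.47 in trisomic liver. Its 3 trisomic arrays all lay above the euploid ones, and it rose by 1.37 (SE 0.19, adjusted p = 0.000155). Ergic1, which cycles between endoplasmic reticulum and Golgi, read 9.17, 8.70 and 8.85 against 9.34, 9.62 and 10.15 and rose by 0.79 (SE 0.20, adjusted p = 0.0186). Mtch1, a protein of the mitochondrial outer membrane, read 12.25, 12.18 and 12.37 in euploid and 12.65, 13.09 and 13.03 in trisomic liver. Its increase of 0.66 (SE 0.20, adjusted p = 0.0449) lay closest to the threshold.

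Of the other enzymes and adaptors, Cuta, named for its bacterial counterpart in divalent cation tolerance, had the smallest p after Uqcc2. It read 8.86, 8.76 and 8.61 in euploid and 10.16, 10.02 and 10.16 in trisomic liver. No euploid array came near the trisomic ones, and the increase was 1.37 (SE 0.21, a fold of 2.59, adjusted p = 0.000327). Nudt3, a Nudix hydrolase of diphosphoinositol phosphates, read 9.11, 9.22 and 9.42 against 9.86, 10.07 and 9.84 and rose by 0.68 (SE 0.18, adjusted p = 0.0267). Kctd20 read 9.17, 9.91 and 9.36 against 10.44, 10.11 and 9.92, with a narrow gap between the genotypes, and rose by 0.68 (SE 0.18, adjusted p = 0.0214). Fkbp5, a co-chaperone of the glucocorticoid receptor and one of its target genes, did not pass. It read 8.80, 7.97 and 9.22 against 8.21, 8.24 and 9.39, a difference of -0.05 with a 95% interval of -0.75 to 0.66.

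Zbtb9, a zinc finger protein with a BTB domain, was the member of the transcription group that rose. Its arrays read 7.45, 7.82 and 7.13 in euploid and 8.67, 8.54 and 8.90 in trisomic liver, without overlap, a difference of 1.23 (SE 0.23, adjusted p = 0.00161). Taf11, a subunit of the general transcription factor TFIID, and Phf1, an accessory protein of Polycomb repressive complex 2, differed by 0.53 and 0.51. The trisomic arrays of both lay above the euploid ones, and neither passed (adjusted p = 0.0991 and 0.202). Crebrf, a regulator of CREB3 factors, differed by -0.20 and Tead3, a DNA-binding partner of the Hippo pathway, by -0.15, with overlapping arrays.

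The kinase Stk38, also called NDR1, read 10.96, 11.00 and 11.17 in euploid and 11.64, 11.63 and 11.68 in trisomic liver. The trisomic arrays lay close together and above every euploid array, and it rose by 0.61 (SE 0.14, adjusted p = 0.0104). Dusp1, the phosphatase that switches off MAP kinases, did not pass. Its euploid arrays read 12.25, 12.52 and 10.98 and its trisomic arrays 11.37, 11.63 and 12.24, so the groups overlapped fully and the interval of the difference ran from -1.36 to 1.03. Mapk14, the p38 alpha kinase that Dusp1 acts on, read 5.80, 5.71 and 6.01 against 6.19, 6.18 and 6.25, a difference of 0.37 (adjusted p = 0.309).

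Of the splicing genes, Srpk1, which phosphorylates SR proteins, differed by 0.84 with overlapping arrays and missed the threshold (adjusted p = 0.0507). Srsf3, an SR protein itself, was the 1 member of 27 whose trisomic arrays all lay below the euploid ones. It read 9.83, 9.75 and 10.05 in euploid and 9.49, 9.04 and 9.59 in trisomic liver, a difference of -0.50 (95% interval -1.07 to 0.07, adjusted p = 0.305). Uhrf1bp1, a lipid transfer protein, differed by 0.65, with trisomic arrays of 11.20, 11.61 and 11.17 above euploid ones of 10.53, 10.69 and 10.81 (adjusted p = 0.166).

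**Figure D1:**
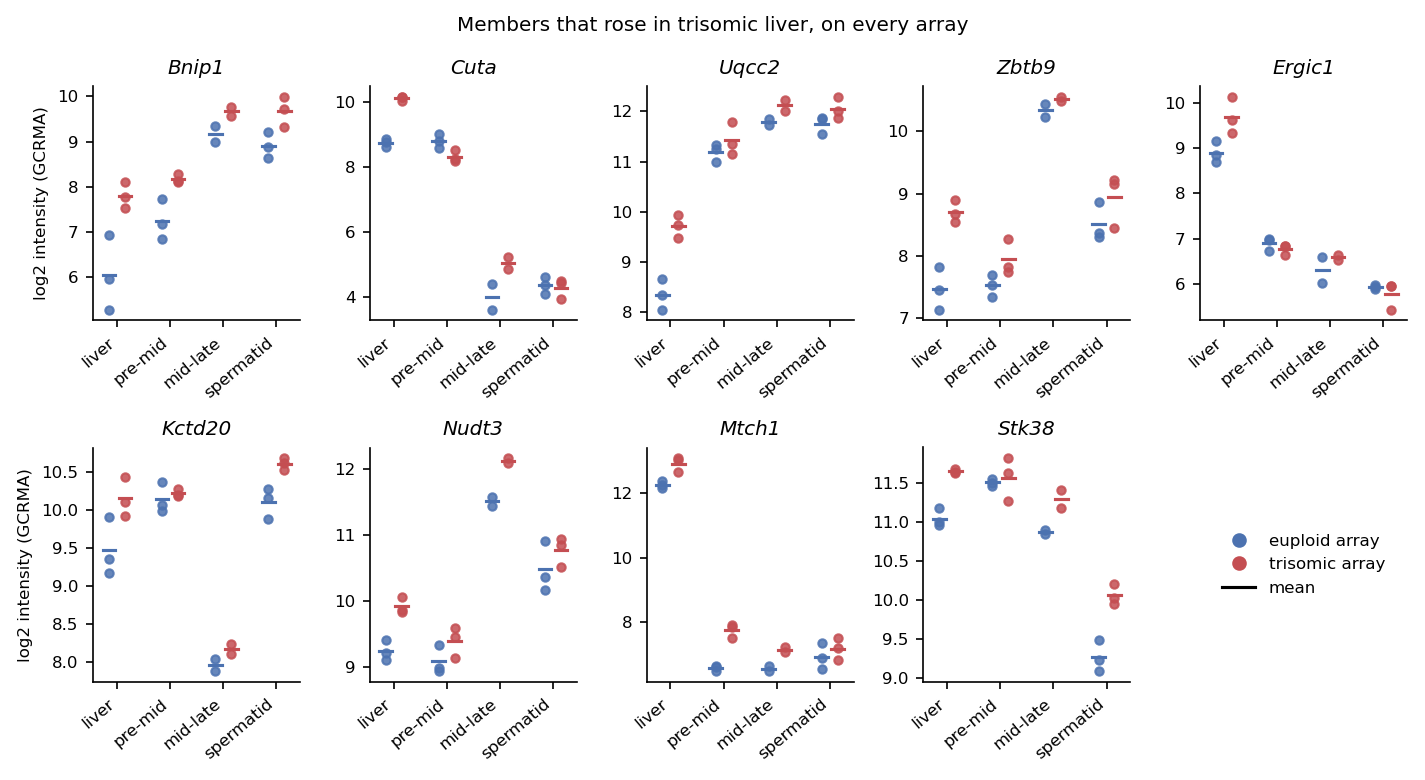
Log2 intensity (y axis, a scale of its own in each panel) on every array of the 9 members that rose in trisomic liver, by cell type (x axis), with points for arrays and bars for group means. In liver all trisomic points lie above all euploid points in each panel, while in the germ cells the points of several genes overlap, as for Cuta in spermatids.

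Over all 27 members the trisomic arrays lay above the euploid ones for 15 members and below for 1, where the shares over all tested genes were 11.8% and 11.3%. The 95% intervals of 20 members held 1.5-fold, and 8 of these also held no change. Those of Bnip1, Cuta, Uqcc2 and Zbtb9 lay above 1.5-fold, and those of 3 lay below it. Estimating the spread from the 6 liver arrays alone left 1 call, that of Cuta. Of the 6 fits that each left out 1 liver array, Ergic1 and Kctd20 lost their call in 3, Nudt3 in 4, Mtch1 in 5 and the other 5 members in 0. Some non-hepatocyte markers moved with genotype in liver: of the 2 markers of red blood cells measured, Slc4a1 was below 3 and the summed level was 12.27 to 12.96 in euploid and 10.55 to 11.55 in trisomic arrays. The 7 stromal markers summed to 11.47 to 11.74 and to 12.30 to 12.66 (Des below 3 in both genotypes, Col1a1 in trisomic arrays), and the 8 of early meiotic prophase to 8.15 to 8.55 and 9.07 to 9.26 (5 of 8 below 3 in euploid and 6 of 8 in trisomic arrays, Dmc1, Spo11 and Sycp1 in both). The array medians of the early meiotic list were 2.73 to 2.89 and 2.70 to 2.79, and of its 2 tested markers Meiob rose and Sycp3 fell. Their part in the result was not tested.

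**Figure D2:**
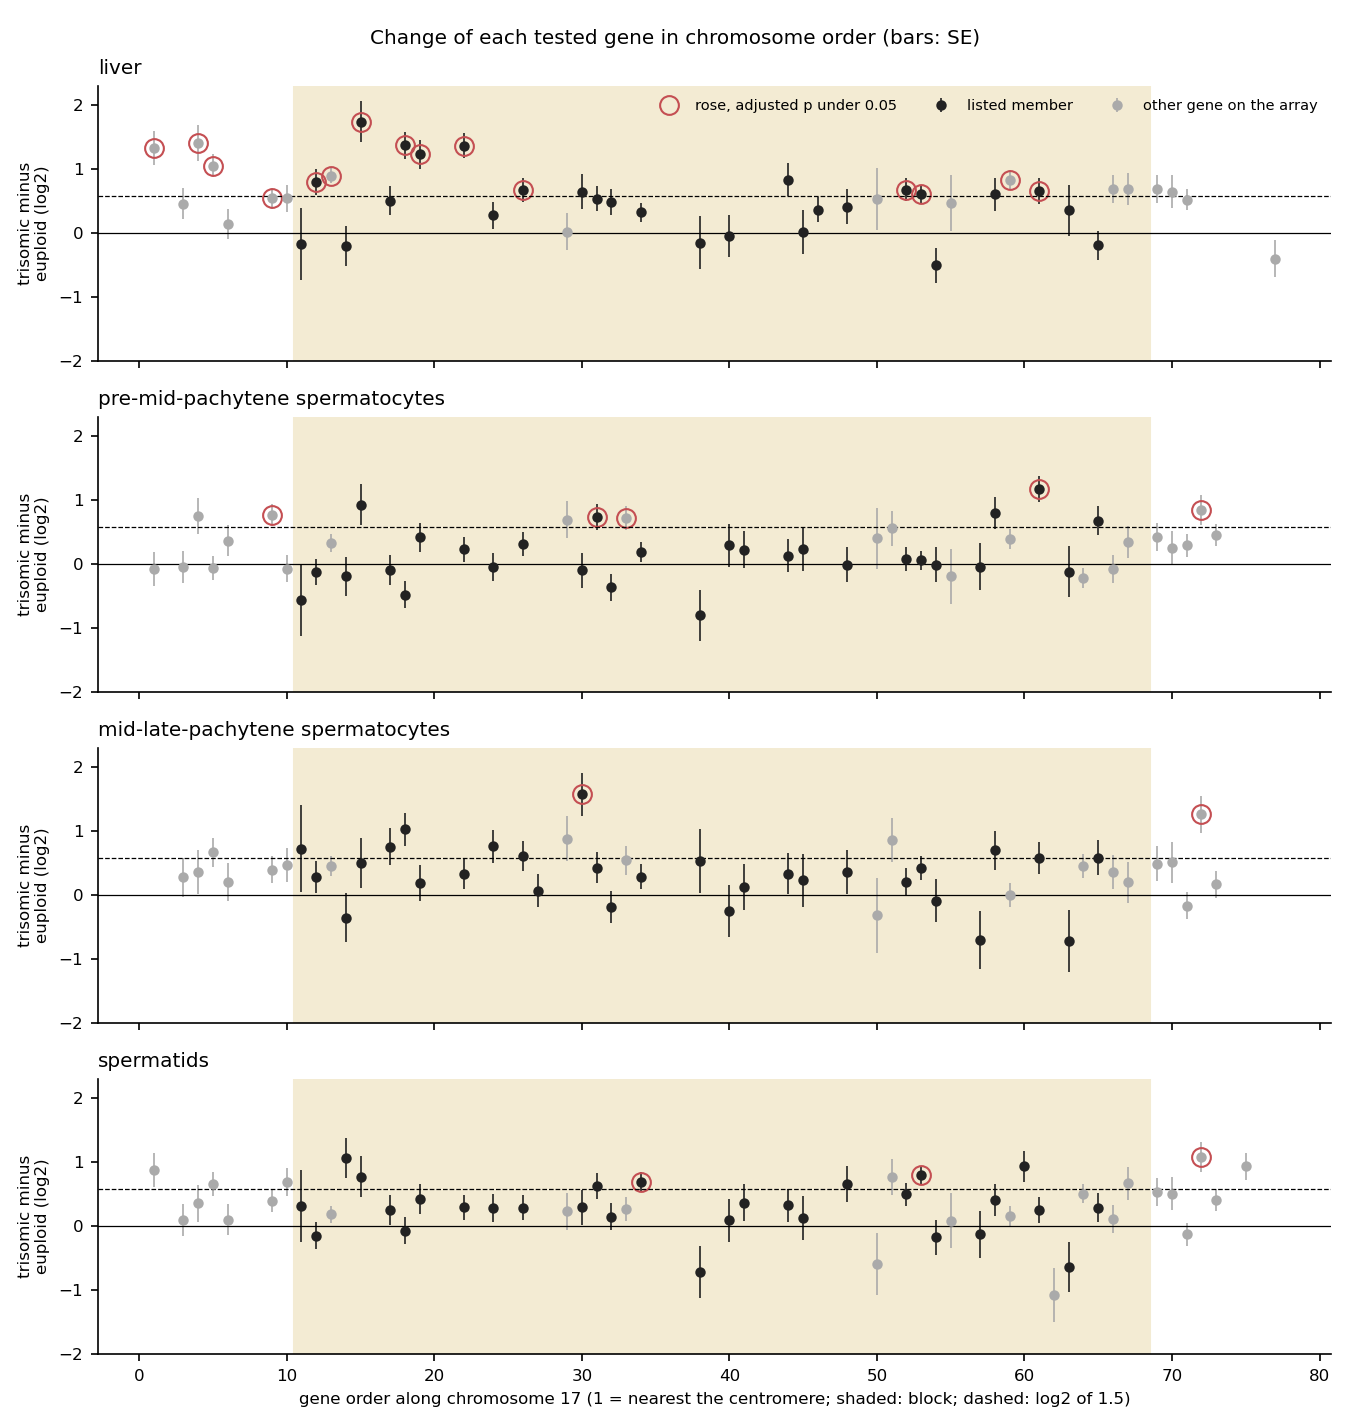
Trisomic minus euploid difference (y axis, log2, bars 1 SE) of each tested gene in its order along chromosome 17 (x axis), one panel per cell type, with the block shaded, listed members in black, other genes in grey and red rings on genes that rose. In liver 9 members are ringed and most points lie above 0, with Bnip1 highest at 1.74, while each germ cell panel has 1 or 2 ringed members.

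In pre-mid-pachytene spermatocytes 2 of 28 tested members rose and 0 fell, where 5.88% of all 8384 tested genes rose and 4.46% fell (10.3% in either direction). The median difference of the members was 0.07, beside 0.11 over all tested genes. Mtch1 read 6.60, 6.63 and 6.46 in euploid and 7.89, 7.50 and 7.83 in trisomic arrays. The groups were well apart, and it rose by 1.17 (SE 0.20, a fold of 2.26, adjusted p = 0.00304). Taf11 read 9.93, 10.16 and 9.53 against 10.66, 10.61 and 10.56, again without overlap, and rose by 0.74 (SE 0.20, adjusted p = 0.0268). Its call was lost without euploid replicate 1 or 3 or trisomic replicate 1 or 2 of this cell type (adjusted p = 0.053 to 0.129).

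Ppil1, a peptidyl-prolyl isomerase of the spliceosome, Bnip1 and Tbc1d22b, which has the domain of Rab GTPase activators, had non-overlapping higher trisomic arrays and differed by 0.80, 0.93 and 0.68 without passing (adjusted p = 0.0502, 0.0706 and 0.0658). The 3 members of highest mean that did not pass, Srsf3, Srpk1 and Stk38, differed by -0.01, 0.13 and 0.06, and their arrays overlapped. At the other end, the trisomic arrays of Cuta and Tead3 lay below the euploid ones. Cuta read 8.58, 8.79 and 9.01 in euploid and 8.17, 8.24 and 8.53 in trisomic cells, a difference of -0.48 (adjusted p = 0.157), and Tead3 differed by -0.80 (adjusted p = 0.222).

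The trisomic arrays lay above the euploid ones for 6 tested members and below for 2, where the shares over all tested genes were 20.8% and 9.46%. The 95% intervals of 13 of 28 members lay wholly below 1.5-fold and those of 14 held it, of which 10 also held no change. Under quantile normalization the median was -0.0099 and 4 members rose, under centring of the arrays it was 0.15 and 5 rose, and with only the 6 arrays of this cell type 0 rose. All 22 arrays gave 6 of 28 members with an unadjusted p under 0.05, beside 2159 of all 8384 tested genes. The marker sums of spermatogonia (7 measured, Zbtb16 and Gfra1 below 3) were 10.33 to 10.95 in euploid and 10.97 to 11.50 in trisomic arrays, but the array medians of these markers leaned the other way and overlapped, at 3.99 to 5.66 and 2.98 to 4.01, and the 3 that were tested had a median difference of -0.11. The sums of endothelial cells (5 markers, with Pecam1, Kdr, Cdh5 and Tek below 3) were 8.29 to 8.47 and 8.55 to 8.77. Of the 6 markers of round spermatids, Acrv1 and Catsper3 fell here in trisomic mice, and the summed level was 13.25 to 14.09 in euploid and 12.78 to 13.57 in trisomic arrays. The part of these markers in the result was not tested.

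In mid-late-pachytene spermatocytes, with 2 arrays of each genotype, 1 of 29 tested members rose and 0 fell. Over all 8085 tested genes 0.569% rose and 0.396% fell (0.965% in either direction). An unadjusted p under 0.05 was reached by 9 members, beside 619 of the 8085 genes. The median difference of the members was 0.34, against 0.00 over all tested genes. Uhrf1bp1 read 6.51 and 5.45 in euploid and 7.85 and 7.27 in trisomic arrays and rose by 1.58 (SE 0.34, a fold of 2.98, adjusted p = 0.0257). The trisomic arrays lay above both euploid ones, which stood far apart, and without euploid replicate 2 the difference was 1.05 (adjusted p = 0.165). Without trisomic replicate 1 it was 1.29 (adjusted p = 0.281), and it did not pass with a minimum mean of 6 (adjusted p = 0.058) or with the 4 arrays of this cell type alone (adjusted p = 0.786).

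Other members had trisomic arrays above both euploid ones without passing. Cuta, at a low level here, read 4.42 and 3.62 in euploid and 5.23 and 4.87 in trisomic arrays, a difference of 1.03 (adjusted p = 0.0686). Phf1 read 11.77 and 11.36 against 12.19 and 12.46, a difference of 0.76 (adjusted p = 0.393), and Lemd2, a protein of the inner nuclear membrane, differed by as much. Of the other members of high mean that did not pass, Srpk1 read 12.89 and 13.08 against 13.28 and 13.37, and Uqcc2 11.85 and 11.73 against 12.24 and 12.01, and both differed by 0.34. In all, the trisomic arrays lay above for 16 tested members and below for 3 (Anks1, Cpne5 and Pim1), where the shares over all tested genes were 17.7% and 15.3%. The intervals of 24 of 29 members held 1.5-fold, and 16 of these also held no change. The marker sums of spermatogonia (7 measured, Kit, Zbtb16, Gfra1, Sohlh1 and Sohlh2 below 3 in both genotypes) were 5.36 to 5.42 in euploid and 6.06 to 6.14 in trisomic arrays, while their medians were 2.41 to 2.44 and 2.36 to 2.39, and their part in the result was not tested.

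In spermatids 2 of 29 tested members rose and 0 fell, where 0.290% of all 8283 tested genes rose and 0.531% fell (0.821% in either direction). An unadjusted p under 0.05 was reached by 8 members, beside 720 of the 8283 genes. The median difference of the members was 0.29, against 0.01 over all tested genes. Stk38 read 9.08, 9.49 and 9.22 in euploid and 9.94, 10.20 and 10.03 in trisomic arrays, without overlap, and rose by 0.79 (SE 0.15, a fold of 1.73, adjusted p = 0.015). Without euploid replicate 1 its difference was 0.70 (adjusted p = 0.06). Zfp523, a zinc finger protein, read 8.99, 9.07 and 9.21 against 9.65, 9.99 and 9.70 and rose by 0.69 (SE 0.16, adjusted p = 0.0454). That call was lost when any 1 of the 6 spermatid arrays was left out (adjusted p = 0.055 to 0.13), although each trisomic array lay above each euploid one.

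Among the tested members the highest difference in spermatids was that of Crebrf, whose arrays read 6.32, 7.06 and 7.55 in euploid and 7.57, 8.17 and 8.38 in trisomic cells. The difference of 1.06 did not pass (95% interval 0.41 to 1.72, adjusted p = 0.134), and the gap between the genotypes was narrow. Pi16, a secreted peptidase inhibitor, differed by 0.94 with overlapping arrays (adjusted p = 0.0859). Of the members of highest mean that did not pass, Armc12, which is needed for the mitochondrial sheath of sperm, Srpk1 and Uqcc2 differed by 0.37, 0.32 and 0.30, with trisomic arrays above the euploid ones for all 3 (adjusted p = 0.893, 0.912 and 0.808). Pim1, a survival kinase, was the 1 tested member with trisomic arrays below the euploid ones, at 9.02, 9.03 and 8.98 against 9.57, 9.13 and 10.24, a difference of -0.64 (adjusted p = 0.77).

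For 10 tested members the trisomic arrays lay above the euploid ones and for 1 below, where the shares over all tested genes were 7.45% and 5.57%. The intervals of 23 of 29 members held 1.5-fold, and 15 of these also held no change. Those of 6 lay below 1.5-fold. Both calls were lost with the 6 spermatid arrays alone (adjusted p = 0.298 for Stk38 and 0.332 for Zfp523). The marker sums of stromal cells (7 measured, Tagln, Col1a1 and Col1a2 below 3 in both genotypes) were 6.66 to 6.90 in euploid and 7.46 to 7.91 in trisomic arrays, and those of macrophages (6, with Cd68, Csf1r, Lyz2 and Ptprc below 3) 7.27 to 7.59 and 6.98 to 7.15. Their part in the result was not tested.

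**Figure D3:**
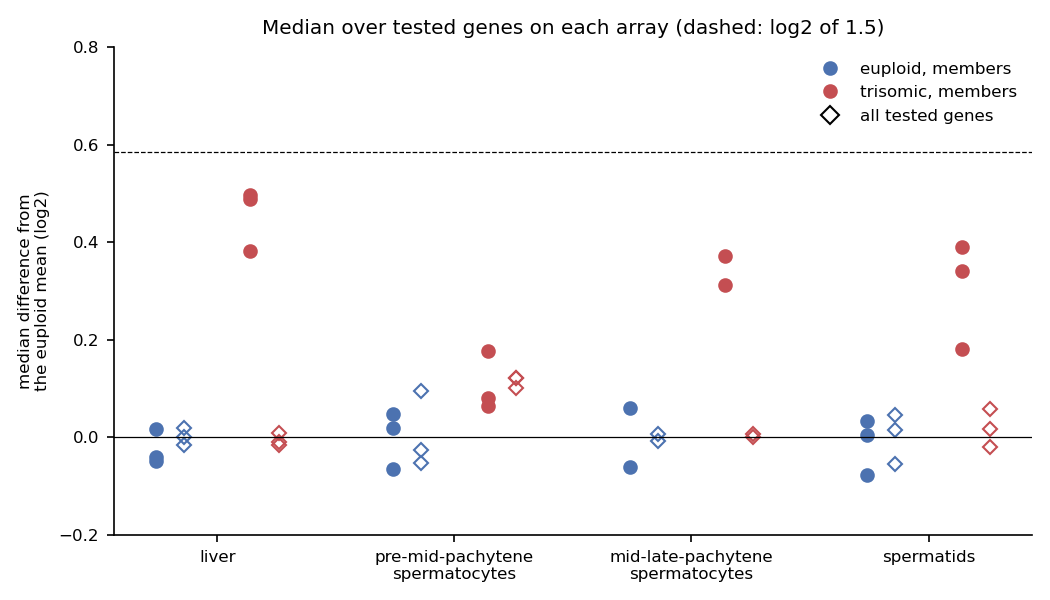
Median over the tested members of each array's difference from the euploid mean of its cell type (y axis, log2; circles) beside the same median over all tested genes (diamonds), for the 4 cell types (x axis). The trisomic liver points lie at 0.38, 0.49 and 0.50, and those of pre-mid-pachytene spermatocytes at 0.06, 0.08 and 0.18, beside all-gene points of 0.10 and 0.12.

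Set side by side over the arrays, the median over members was above every euploid array on each trisomic array of all 4 cell types. In trisomic liver it was 0.38, 0.50 and 0.49 and on the mid-late-pachytene arrays 0.37 and 0.31. Spermatids gave 0.18, 0.34 and 0.39. In pre-mid-pachytene spermatocytes it was 0.08, 0.06 and 0.18, beside medians of 0.12, 0.10 and 0.12 over all tested genes on the same arrays. That cell type was thus the 1 in which the listed members did not stand above the other genes on all trisomic arrays. Over 10 tested genes of the same stretch that were not listed, the median difference there was 0.37. For the 26 members tested in all 4 cell types the median differences were 0.52 in liver and 0.29 in spermatids, and 0.07 and 0.39 in the earlier and the later spermatocytes.

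Whether the difference of a gene was itself unlike that in liver was tested for these 26 members. In pre-mid-pachytene spermatocytes 2 members had a lower difference than in liver and 0 a higher one, where 1.95% of all 6510 genes tested were lower and 3.26% higher (5.21% in either direction). Cuta differed by 1.37 in liver and by -0.48 in these cells, a gap of -1.85 (95% interval -2.47 to -1.23, adjusted p = 0.00261). Uqcc2 differed by 1.37 and 0.24, a gap of -1.13 (95% interval -1.71 to -0.55, adjusted p = 0.0258). The call of Uqcc2 was lost in 5 of 12 fits that each left out 1 array (euploid replicate 3 or trisomic replicate 1 of liver, or euploid replicate 3 or trisomic replicate 1 or 2 of the germ cells), over which its gap was -1.31 to -0.98. The gap of Cuta stayed between -1.96 and -1.74. Under quantile normalization or centring Tbc1d22b was called as well, with a higher difference than in liver.

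In spermatids 1 of 26 members had a lower difference than in liver and 0 a higher one, where 0.683% of 6006 genes were lower and 0.300% higher (0.982% in either direction). This was again Cuta, with differences of 1.37 and -0.07 and a gap of -1.44 (95% interval -2.06 to -0.82, adjusted p = 0.0212). The gene was near the low end of the scale in spermatids, at 4.38, 4.12 and 4.61 in euploid and 3.94, 4.44 and 4.52 in trisomic arrays. Without euploid replicate 3 or trisomic replicate 1 of spermatids the gap did not pass (adjusted p = 0.055 and 0.061). In mid-late-pachytene spermatocytes the limma test called 0 of 26 members, where 0.561% of 6058 genes were lower and 0.363% higher (0.924% in either direction). At an unadjusted p under 0.05 were 5 members, beside 647 of the 6058 genes. Of these 5 members, Bnip1, Zbtb9 and Uqcc2 had gaps of -1.24, -1.05 and -1.03, and Tbc1d22b and Uhrf1bp1 gaps of 0.78 and 0.93. Between spermatids and pre-mid-pachytene spermatocytes 0 of 28 members were called, where 0.108% of 7401 genes were higher and 0.135% lower (0.243% in either direction). At an unadjusted p under 0.05 were 4 of the 28 members, beside 1130 of the 7401 genes. These 4 members were Crebrf at 1.26, Stk38 at 0.73, Zfp523 at 0.49 and Mtch1 at -0.93.

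**Figure D4:**
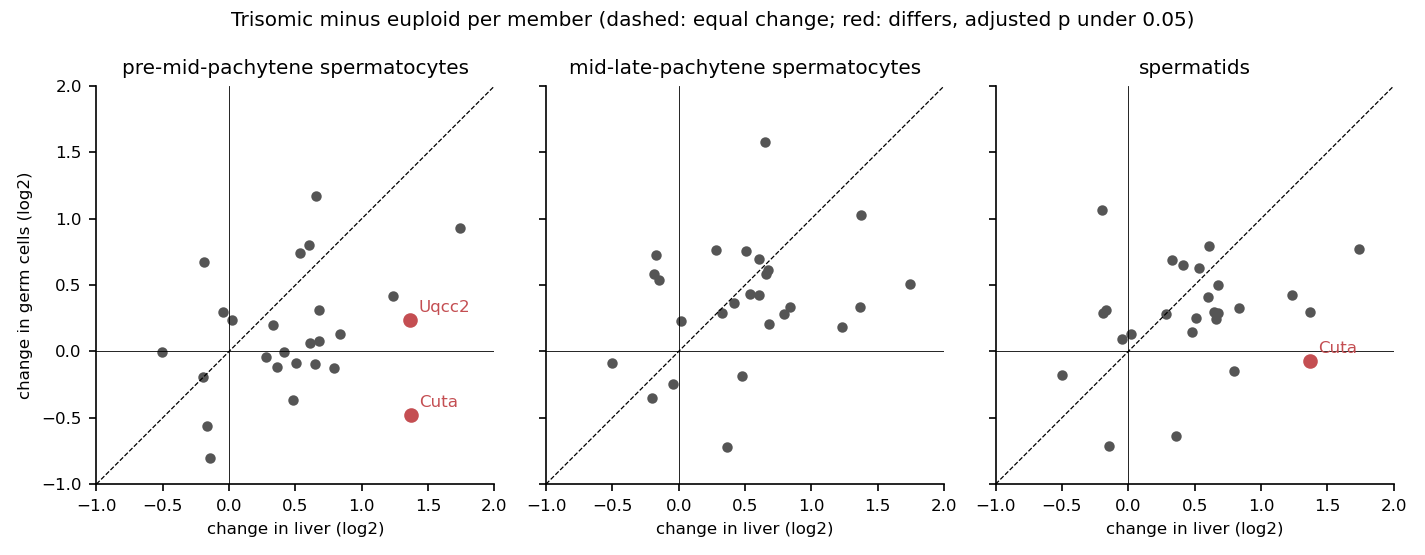
Trisomic minus euploid difference of the 26 members tested in both cell types in liver (x axis, log2) and in each germ cell type (y axis, log2), with a dashed line of equal difference and red points where the 2 differ at an adjusted p under 0.05. Cuta lies at 1.37 in liver and -0.48 in pre-mid-pachytene spermatocytes, and at -0.07 in spermatids.

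The members differ widely in where they are used in euploid mice. Of the 26 tested in all cell types, 5 were highest in liver and 3 in spermatids by group mean, 7 in the earlier and 11 in the later spermatocytes. Dusp1 (11.91 ± 0.82), Mtch1 (12.26 ± 0.10) and Uhrf1bp1 (10.68 ± 0.14) were highest in liver (mean ± SD, n = 3). Srsf3 was highest in pre-mid-pachytene spermatocytes at 12.53 ± 0.13 and lowest in spermatids at 6.71 ± 0.72 (SD, n = 3). Armc12 was at 12.82 ± 0.21 in spermatids (SD, n = 3) and in the background range below 3 in liver, where its arrays read 2.90, 2.68 and 2.88.

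**Figure D5:**
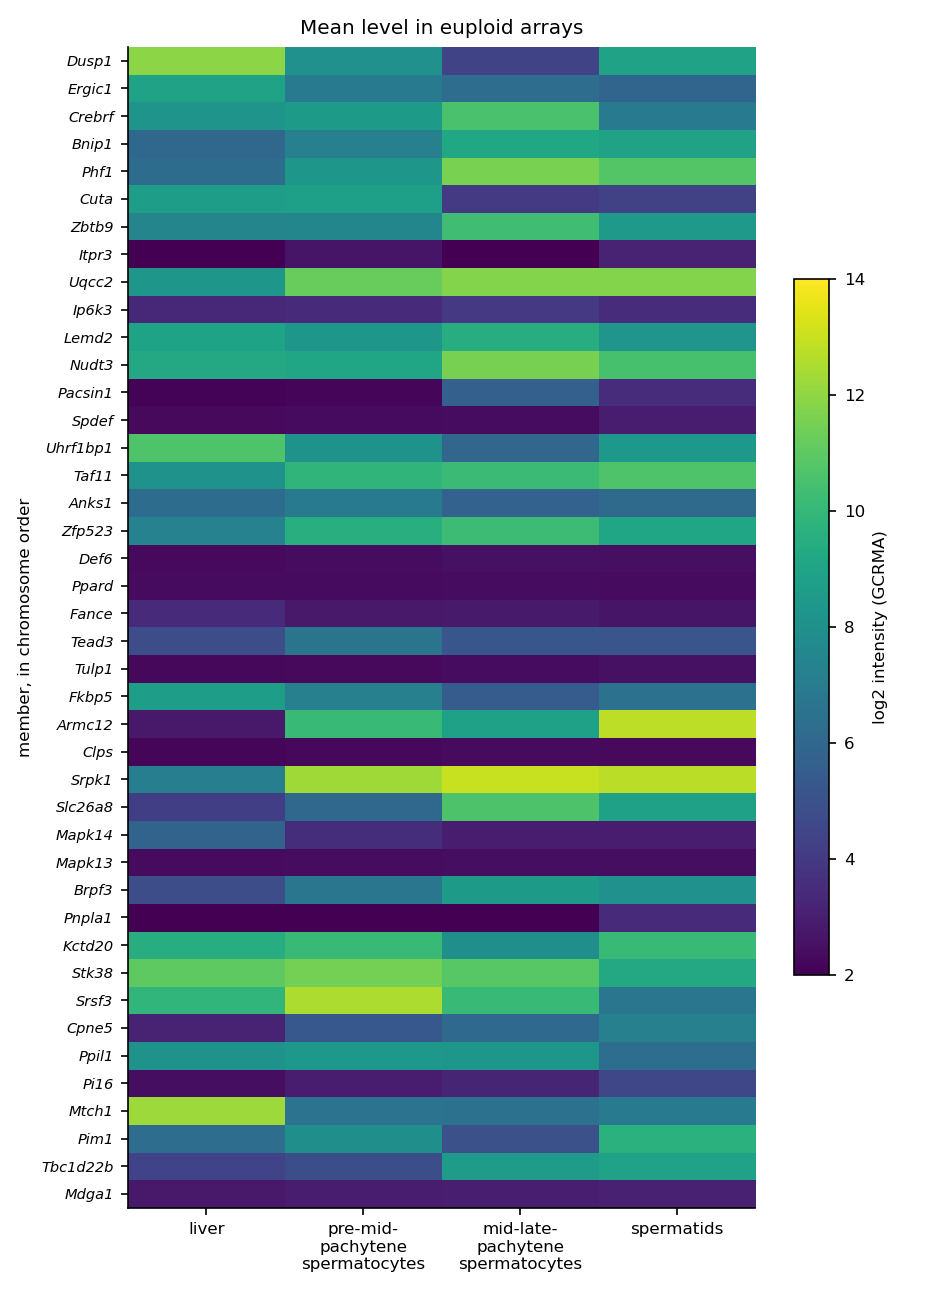
Mean log2 intensity (colour) of the 42 members on the array in the euploid arrays of the 4 cell types (columns), in chromosome order (rows). Mtch1 and Dusp1 are brightest in liver, Srsf3 in pre-mid-pachytene spermatocytes and Armc12 in spermatids, and rows such as Clps, Tulp1 and Mapk13 stay dark throughout.

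From euploid pre-mid-pachytene to mid-late-pachytene spermatocytes 13 of 29 tested members rose and 12 fell, where 42.8% and 36.0% of all 9035 tested genes did (78.8% in either direction). The later arrays all lay above the earlier ones for 14 members and below for 12, where the shares over all tested genes were 45.8% and 37.8%. Slc26a8, an anion transporter of sperm, rose from 6.14, 5.61 and 6.47 to 10.96 and 10.34, by 4.58 (SE 0.38). Tbc1d22b rose by 3.73, Pacsin1, which shapes membranes in endocytosis, by 3.53, Phf1 by 3.19 and Zbtb9 by 2.81. Cuta fell by 4.77 (SE 0.24), from 8.58, 8.79 and 9.01 to 4.42 and 3.62. Dusp1 fell by 3.65 from 8.73, 8.12 and 7.43 to 5.60 and 3.28, and Pim1 fell by 3.01 from 7.83, 8.02 and 8.09 to 4.56 and 5.38. The adjusted p of each of these 8 genes was at most 3.2e-05.

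From euploid mid-late-pachytene spermatocytes to spermatids 8 of 30 tested members rose and 11 fell, where the shares over all 8721 tested genes were 29.7% and 35.0% (64.7% together). The spermatid arrays all lay above the others for 10 members and below for 13, beside 34.4% and 42.9% of all tested genes. Pim1 rose by 4.68 (SE 0.44) to 9.57, 9.13 and 10.24, and Dusp1 by 4.45 (SE 0.63) to 9.17, 8.70 and 8.81. Armc12 rose by 3.94, Uhrf1bp1 by 2.44 and Kctd20 by 2.14. Crebrf fell by 3.59, Srsf3 by 3.45 and Pacsin1 by 2.20, with an adjusted p of at most 5.34e-06 for these 8 genes. These comparisons share the mid-late-pachytene arrays, so that a low value there counts in both steps.

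Taking the steps together, 6 members fell and then rose (Dusp1, Uhrf1bp1, Fkbp5, Armc12, Kctd20 and Pim1), 8 rose and then fell (Crebrf, Phf1, Zbtb9, Lemd2, Nudt3, Pacsin1, Zfp523 and Slc26a8), and Stk38 and Srsf3 fell at both, of the 29 members tested at both steps. Over all 8322 genes tested at both, 12.2% fell and then rose, 19.2% rose and then fell and 9.93% fell at both. The elongating spermatid markers also fell and then rose, with mean array medians of 14.17, 11.35 and 15.28 in the euploid fractions in the order of stages. The part of these markers in the courses of the members was not tested. The genes of the first course include the ones with the CRE-bearing Dusp1 window and the GC-rich Pim1 window printed above, which share none of the letters searched other than the GC box. The head-to-head pair did not take 1 course. Anks1, an adaptor of Eph receptors, fell by 1.23 at the first step, from 6.57, 7.16 and 7.27 to 5.72 and 5.82, and Taf11 was called at neither step. In trisomic pre-mid-pachytene spermatocytes Taf11 rose by 0.74 while Anks1 differed by -0.37 with overlapping arrays (adjusted p = 0.284), and whether these 2 differences differ was not tested.

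Of the 42 members on the array, 26 reached a mean of 4 in all 4 cell types, 2 in 3 of them, 3 in 1 and 11 in none. The 11 are Itpr3, Ip6k3, Spdef, Def6, Ppard, Fance, Tulp1, Clps, Mapk13, Pnpla1 and Mdga1, and they were not tested. Some of them still read apart. Itpr3, an inositol trisphosphate receptor, read 3.14, 3.08 and 3.41 in euploid and 5.48, 4.45 and 4.30 in trisomic spermatids, and 1.82 to 3.44 on the arrays of the other cell types. Fance, of the Fanconi anaemia core complex, read 3.42, 3.78 and 3.02 in euploid and 4.12, 4.09 and 4.77 in trisomic liver, and Ppard, a nuclear receptor for fatty acids, 2.46, 2.31 and 2.34 against 2.97, 2.81 and 2.89. Pacsin1, tested in mid-late-pachytene spermatocytes, went the other way in spermatids, at 2.98, 3.60 and 3.93 in euploid and 2.25, 2.58 and 2.23 in trisomic arrays. Differences in this range are hard to read on the array scale, since background sets a floor. With no filter Ppard and Fance rose in liver, Itpr3 rose in spermatids and Pacsin1 fell there.

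At the distal bound, the members Pim1, Tbc1d22b and Mdga1 differed by 0.36, -0.19 and 0.07 in liver, and Mdga1 was in the background range. The first 3 array genes beyond it, Zfand3, Btbd9 and Glo1, differed by 0.69, 0.65 and 0.52, and the trisomic arrays of all 3 lay above the euploid ones. At the proximal bound, Dusp1, Ergic1 and Crebrf inside differed by -0.17, 0.79 and -0.20, and Luc7l and Fam234a outside by 0.54 each, while Rgs11 was in the background range. From the start of the chromosome to the block there are 194 array genes. Of the 110 tested in liver 57 rose, beside 5.77% of all tested genes, and the median difference was 0.70. The medians there were 0.27 and 0.28 in the earlier and the later spermatocytes and 0.38 in spermatids. Over the 70 genes from 30 to 34 Mb the medians were 0.08, 0.03, -0.02 and -0.04 in the same order of cell types. Over the tested genes among the first 10 past 30 Mb they were 0.59, 0.42, 0.49 and 0.52. The differences there were above 0 for 3 of 4, 5 of 5, 4 of 5 and 5 of 6 genes. No difference between these regions was tested.

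The pathways in which the members act were followed through lists of their genes, which hold the members too. Over all tested genes 5.77% rose and 3.78% fell in liver, and 5.88% and 4.46% in pre-mid-pachytene spermatocytes. In the later spermatocytes the shares were 0.569% and 0.396%, and in spermatids 0.290% and 0.531%. The medians over all tested genes were -0.01, 0.11, 0.00 and 0.01 in that order. The list counts at an unadjusted p under 0.05 given below stand beside those of all tested genes at that cutoff. These were 1816 of 8180 in liver and 2159 of 8384 in pre-mid-pachytene spermatocytes. In the later spermatocytes they were 619 of 8085, and in spermatids 720 of 8283. Of the p38 MAP kinase pathway, 15 of 22 listed genes on the array were tested in liver, of which 0 rose and 3 fell, with a median of -0.31. The upstream kinases Map2k3 and Map2k6 fell by 0.75 and 0.85 and the target transcription factor Atf2 by 0.74 (adjusted p = 0.0384, 0.0223 and 0.0336), and the arrays of Map2k6 and Atf2 overlapped. In pre-mid-pachytene spermatocytes the downstream kinases Mapkapk5 and Mknk1 rose by 0.69 and 0.57 of 12 tested genes (adjusted p = 0.0316 and 0.0216). In the later germ cell types limma called 0 of 11 and 0 of 12, of which 2 and 1 had an unadjusted p under 0.05.

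Of the glucocorticoid receptor and its targets, the pathway of Fkbp5, 15 genes were tested in liver, 1 rose and 1 fell, with a median of -0.15. The metallothionein gene Mt1 rose by 2.33 with overlapping arrays, and the clock gene Per1 fell by 1.90 (adjusted p = 0.0368 and 0.00706). In pre-mid-pachytene spermatocytes the transcription factor Klf9 fell by 1.07, 1 of 11 tested genes (adjusted p = 0.00267), and in each of the later germ cell types 0 of 10 passed and 0 had an unadjusted p under 0.05. Of the PPAR receptors and targets, 2 of 10 tested genes rose in liver and 0 fell: Cd36, a fatty acid transporter, by 2.24 and Pdk4, a kinase that inhibits pyruvate dehydrogenase, by 0.83 (adjusted p = 0.000389 and 0.00825). The median of that list was 0.00, and limma called 0 of 4, 0 of 4 and 0 of 6 in the germ cells in the order of stages, with an unadjusted p under 0.05 for 3, 1 and 2.

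Among the SR proteins, their kinases and the U1 particle, limma called 0 of 23 tested genes in liver, with a median of -0.0067 and an unadjusted p under 0.05 for 5. In pre-mid-pachytene spermatocytes the Sm proteins Snrpd3 and Snrpf rose by 0.63 and 0.72 (2 of 23, adjusted p = 0.0314 and 0.0398). The list median there was 0.38, beside 0.11 over all tested genes. In spermatids Snrpe fell by 0.84 (1 of 22, adjusted p = 0.0211). Of the Fanconi anaemia genes, Fancf rose by 1.21 in liver (1 of 5 tested, adjusted p = 0.000708), and Fancg and Palb2 rose by 1.60 and 0.82 in pre-mid-pachytene spermatocytes (2 of 13, adjusted p = 0.00814 and 0.028). Of TFIID, the TATA-binding protein gene Tbp, on chromosome 17 like the block, rose by 1.01 in liver (1 of 10, adjusted p = 0.0207), and Taf11 was the 1 of 11 that rose in pre-mid-pachytene spermatocytes. Of Polycomb repressive complex 2 and of the BRPF acetyltransferase complexes limma called 0 of 10 and 0 of 8 in liver, with an unadjusted p under 0.05 for 1 of each. In pre-mid-pachytene spermatocytes the histone chaperone Rbbp4 rose by 1.14 (1 of 10, adjusted p = 0.00791) and the chromatin reader Ing4 by 1.03 (1 of 9, adjusted p = 0.00735). In the later spermatocytes 0 genes of these 8 lists passed, with at most 2 of a list at an unadjusted p under 0.05, and in spermatids Snrpe alone passed.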

How the data were processed

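RNA of liver and 3 sorted germ cell types was measured on 22 arrays. The authors deposited log2 intensities, 1 for each probe set, computed with GCRMA, per the submitters' processing notes, and its version is not given in the sources used here. GCRMA estimates background from GC content, and values below 3 are called the background range. Each array gene had 1 probe set. Of 16539 probe sets, 759 were not assigned exactly 1 gene symbol and were not used. Gene order came from a RefSeq table of GRCm38.p6, which placed 15749 named genes. With arrays, their number limits the precision.

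Means of the 8 groups over all 22 arrays were fitted with limma 3.58.1 in R 4.3.3, moderated over the genes tested, two-sided, with Benjamini-Hochberg adjustment at 0.05 over all genes whose mean there was 4 or more (in both cell types for differences between cell types, in either for stages). Promoters were searched in Python 3.11.15. The fit was tested on simulated data.

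The members, lists and tests were chosen with earlier results of these data known. Named were, per comparison, up to 8 members with the largest changes past the threshold and without overlap of arrays, all with differing changes, the 3 highest that did not pass, the 3 at each bound and up to 3 genes of a pathway list; others were chosen after their values were seen. Same-numbered arrays of both genotypes correlated at -0.13 to 0.36 in their deviations from group means, above 0.1 in 4 of 11 pairs, so the numbers were not taken as pairs. Alternatives were other filters, normalizations and fits, and leaving out each array.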

Additional observations from a re-analysis of the deposited data

Results flagged for a closer look

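The difference between trisomic and euploid arrays itself differed between cell types for 2 members. For Cuta the difference in pre-mid-pachytene spermatocytes minus that in liver was -1.85, and that in spermatids minus that in liver was -1.44. For Uqcc2 the difference in pre-mid-pachytene spermatocytes minus that in liver was -1.13. In each case the interaction term of the limma fit passed an adjusted p of 0.05, and in each case the member had risen in liver.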

How the results depend on the processing

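In liver, where 9 members rose, 7 to 10 rose with no filter, a minimum mean of 6, quantile normalization, centred arrays and a trended, robust fit, 6 to 8 without 1 array, and 1 (Cuta) with the liver arrays alone. The liver median of 0.51 was 0.31 with no filter, 0.60 with a minimum mean of 6, 0.46 after quantile normalization, 0.41 with centred arrays and 0.47 to 0.58 without 1 array. In pre-mid-pachytene spermatocytes, where 2 rose, quantile normalization gave 4, centring 5, its own arrays alone 0 and leaving out 1 array 1 to 3. The median of 0.07 was -0.0099, 0.15 and 0.05 to 0.12 under quantile normalization, centring and leaving out 1 array. In mid-late-pachytene spermatocytes, where 1 rose, a minimum mean of 6 and its own arrays alone gave 0, centring 2 and leaving out 1 array 0 to 3, and the median of 0.34 was 0.16 with no filter and 0.27 to 0.41 without 1 array. In spermatids, where 2 rose, no filter gave 4 (3 rose and 1 fell), a minimum mean of 6, quantile normalization and the trended fit 1 each, its own arrays alone 0 and leaving out 1 array 0 to 3, and the median of 0.29 stayed between 0.28 and 0.33 without 1 array. Of differences from liver, the 2 in pre-mid-pachytene spermatocytes became 1 with the arrays compared alone and 1 to 3 without 1 array. The 0 in mid-late-pachytene spermatocytes became 1 (Ppard) with no filter. The 1 in spermatids became 3 with no filter, 0 with a minimum mean of 6 and 0 to 2 without 1 array, and the 0 between spermatids and pre-mid-pachytene spermatocytes became at most 1 (Stk38). The euploid stage counts of 25 and 19 moved by less than 1.5 times, to 22 to 25 and 18 to 21 without 1 array.

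With the replicate number as a block, 6 members rose in liver (Ergic1, Kctd20 and Mtch1 were lost), 3 in pre-mid-pachytene spermatocytes and 1 in spermatids, and 2 differed between spermatids and liver. Of single genes, 364 values under the alternatives kept their direction and side of the threshold, 62 lost the call and 0 reversed. These values pool the trisomic-euploid calls and the differences between cell types with the genes of largest change at the euploid stage steps. Leaving out 1 array lost no call of those stage genes. The pooled share of lost calls is therefore not that of the trisomic-euploid calls. The fit with a cell type's own arrays has fewer arrays from which to estimate the spread. Other causes were not tested. Averaging probe sets was not run, since each gene had 1.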

Other observations

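Beside the listed members, 16 other array genes lie in the same stretch of chromosome 17. In liver 2 of the 7 tested rose and 0 fell, where 5.77% of all tested genes rose and 3.78% fell, and the median difference was 0.69. The medians in the germ cells were 0.37 over 10 tested genes, 0.45 over 9 and 0.19 over 11 in the order of stages, where those of the listed members were 0.07, 0.34 and 0.29, and these differences were not tested. The genes that rose in liver were Atp6v0e, a subunit of the proton pump of vesicles, by 0.90, and BC004004, by 0.83. Rnf8, a ubiquitin ligase of the DNA damage response that also acts on unpaired chromatin in meiosis, differed by 0.69 in liver (adjusted p = 0.052) and by -0.07 in pre-mid-pachytene spermatocytes. The gap of -0.76 between these 2 differences did not pass limma's test (adjusted p = 0.144). In the later spermatocytes Rnf8 differed by 0.36 and in spermatids by 0.12, and neither passed. Tcp11, a testis gene of the t complex, was not tested in liver, where it was in the background range. It was the 1 of 10 that rose in pre-mid-pachytene spermatocytes, by 0.72 (adjusted p = 0.021), where 5.88% of all tested genes rose. These genes were chosen after their values were seen.

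Among the first 10 array genes past 30 Mb, 1700097N02Rik rose in all 3 germ cell types, by 0.84, 1.26 and 1.08 in the order of stages (adjusted p = 0.032, 0.043 and 0.038), with overlapping arrays in the first of these, and was not tested in liver.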
